A study of Mus musculus with 28 samples.

Results

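Acute restraint was studied here in the pituitary of female C57BL/6J mice, as the comparison of 4 restrained females with 4 home cage controls, 8 of the 28 mice sequenced in the study. The members were taken from the group labels, and every gene of the count table was described. All mice were labelled as 8 weeks old, and all, controls included, had been habituated to the water tanks used elsewhere in the study for paradoxical sleep deprivation (PSD). The restrained females were held for 20 min without prior PSD, and whole glands were taken 10 min after restraint ended. The controls stayed in the home cage. Set beside them are 8 females that had 12 h of PSD ending 18 h earlier, 4 of them then restrained, and males without PSD, of which 2 were restrained and 4 were home cage controls. Mice were killed for collection and RNA was taken from whole glands, so the libraries were treated as separate animals. The labels give no batch.

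The anterior pituitary holds several classes of hormone cells, and its corticotropes answer corticotropin-releasing hormone (CRH) and vasopressin during stress by secreting ACTH, a product of the Pomc gene. CRH acts through its receptor on cyclic AMP and calcium, and the transcription factor CREB then binds the cyclic AMP response element (CRE) of early response genes, which are transcribed within minutes and without new protein. Many of these genes encode transcription factors of the NR4A, AP-1 and EGR families, and others encode proteins that switch the signal off again.

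Libraries of the 8 mice held 23077710 to 51598717 counts on genes, and Xist and Ddx3y matched the labelled sex. Genes of the hormone cells were abundant in every gland, and melanotrope and posterior lobe markers were present in all, so the intermediate and posterior lobes were in the samples. Values are CPM, counts scaled to a common library size, which correct for depth and composition of a library but not for the length of a gene. In a whole gland, a change in the number of cells of a type and a change in RNA per cell cannot be told apart. Restrained mouse 3 stood apart from the other mice. A list of 12 adipocyte genes, chosen after seeing the data, summed to 1000 CPM in its library, against 13.9 to 37.3 CPM in the other 7 mice and at most 65.2 CPM in the rest of the study. Ucp1, the uncoupling protein of brown fat, had 216 CPM there and at most 1.23 CPM in the 27 other mice, and Adipoq had 40.5 CPM against at most 0.138 CPM. The counts of calls, over all genes and over each list, are therefore given with and without this mouse.

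Of 18059 genes tested, 98 were called (0.543%), at an adjusted p of at most 0.05 and a change of at least 1.25-fold. Restraint raised 87 of them (0.482%) and lowered 11 (0.0609%). The genes that rose had a median log2 fold change of 1.02, with a range of 0.34 to 4.36, and 45 of them at least doubled, whereas the 11 that fell had a median of -0.49 and a single gene, Cited2, past -1. The median over all genes tested was 0.01. The 4 restrained mice lay entirely above the 4 controls for 85 of the 87 genes, and entirely below for 11 of 11. Of all genes tested, 5.93% had groups that did not overlap, 2.76% with the restrained mice above and 3.17% with them below. An unadjusted p under 0.05 was found for 1765 genes. Leaving out restrained mouse 3 gave 178 calls (0.975%), 151 higher (0.827%) and 27 lower (0.148%), and 94 of the 98 genes remained. The count was lower without restrained mouse 2 (52) or 4 (57), without control mouse 1 (56), 3 (45) or 4 (55), and when only the 8 mice were fitted (54).

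**Figure D1:**
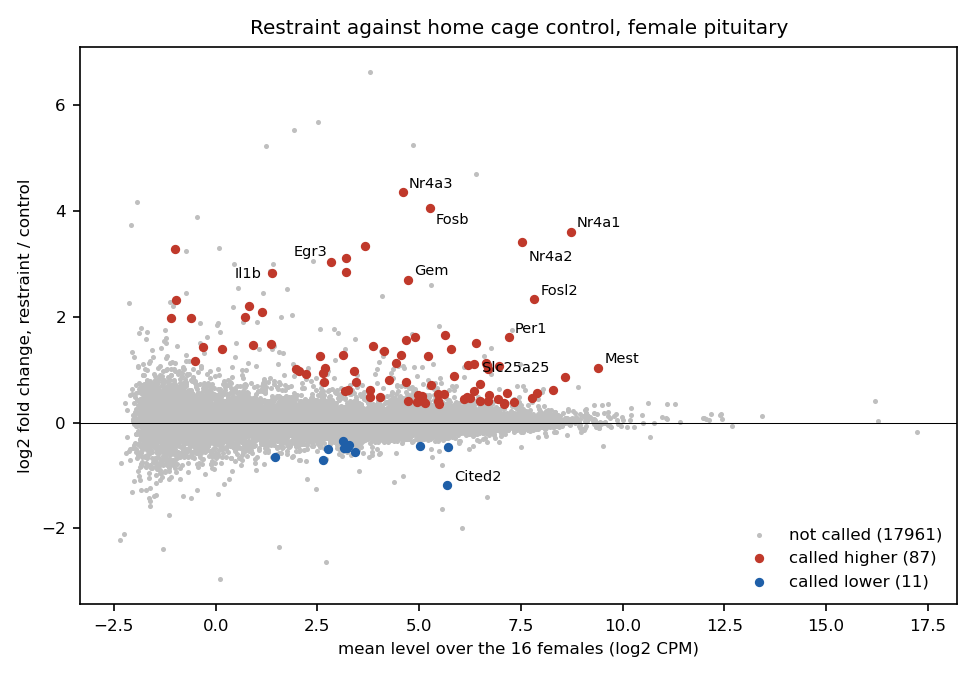
Log2 fold change of each gene tested (restraint over control, vertical axis) against its mean level over 16 females (log2 CPM, horizontal axis), with the 87 genes called higher in red, the 11 called lower in blue and all others in grey. Calls higher reach 4.36 and calls lower stop at -1.19. Some grey points lie above the called genes, where a large mean change came with a spread too wide for a call. A group mean can be raised by 1 mouse, as with Ucp1, at 216 CPM in restrained mouse 3 and at most 1.23 CPM in the 27 other mice.

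The start sites of several induced genes are shown first, since CRE motifs can be read directly in them. RefSeq promoters (250 bases before to 50 after a start, GRCm38.p6) were looked up by symbol or by a unique synonym. They were matched for 57 of the 87 genes called higher. The full CRE, TGACGTCA, was found in 6 of their 81 promoters (7.41%), against 2.80% of the 16163 promoters of tested genes. The 81 include promoters of Fbrsl1, a synonym match that was not called under its own symbol. The shorter core TGACG, which every full CRE also contains, was found on either strand in 43 (53.1%), against 28.4% of promoters of tested genes and 20.8% of all 32851 promoters in the table. These shares are descriptions without a test. Capitals below mark TGACG, or its reverse complement CGTCA, in the bases upstream of the start, 5′ to 3′ on the strand of the gene. Bases that overlap an annotated exon of the same gene were left out, which removed 152 bases next to the start of Nr4a3 and 6 next to that of Fosb.

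The 3 NR4A promoters and those of Fosb, Coq10b and Slc25a25 are shown because they carry the core and these genes lie among the 20 induced genes with the smallest p. They were picked after the motif search, and they are not a sample of those 20. Per1, Pard6a, Egr4, B3galt2 and Fam212b, of the same 20, also had a matched promoter with the core and are not shown. That of Pard6a held the full CRE. The matched promoters of Il1b, Mknk2, Dusp14 and Gadd45b, which belong to the same 20, held no copy of the core. The windows are chr15:101266596-101266845 (plus strand) for Nr4a1, chr2:57124004-57124253 (minus) for Nr4a2, chr4:48045055-48045152 (plus) for Nr4a3, chr7:19310052-19310295 (minus) for Fosb, chr1:55052520-55052769 (plus) for Coq10b and chr2:32424067-32424316 (minus) for Slc25a25. The windows of Nr4a1 and Slc25a25 lie inside the annotated gene, upstream of an internal start and outside its exons.
Nr4a1: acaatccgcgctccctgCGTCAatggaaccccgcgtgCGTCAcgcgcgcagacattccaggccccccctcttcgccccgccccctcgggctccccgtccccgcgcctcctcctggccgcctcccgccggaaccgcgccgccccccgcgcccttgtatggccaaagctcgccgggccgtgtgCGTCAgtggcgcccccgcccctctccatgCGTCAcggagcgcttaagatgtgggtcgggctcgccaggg
Nr4a2: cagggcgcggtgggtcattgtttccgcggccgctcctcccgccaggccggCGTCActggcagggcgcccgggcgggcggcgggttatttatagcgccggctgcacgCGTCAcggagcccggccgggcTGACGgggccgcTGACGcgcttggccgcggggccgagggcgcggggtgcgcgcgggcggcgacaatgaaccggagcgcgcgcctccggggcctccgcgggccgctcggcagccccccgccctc
Nr4a3: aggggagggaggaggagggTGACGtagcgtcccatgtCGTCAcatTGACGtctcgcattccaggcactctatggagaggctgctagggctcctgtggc
Fosb: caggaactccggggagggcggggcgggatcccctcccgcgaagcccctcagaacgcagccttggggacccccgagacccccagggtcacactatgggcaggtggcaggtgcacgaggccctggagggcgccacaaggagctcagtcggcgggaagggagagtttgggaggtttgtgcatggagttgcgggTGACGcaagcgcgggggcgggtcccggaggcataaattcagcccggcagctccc
Coq10b: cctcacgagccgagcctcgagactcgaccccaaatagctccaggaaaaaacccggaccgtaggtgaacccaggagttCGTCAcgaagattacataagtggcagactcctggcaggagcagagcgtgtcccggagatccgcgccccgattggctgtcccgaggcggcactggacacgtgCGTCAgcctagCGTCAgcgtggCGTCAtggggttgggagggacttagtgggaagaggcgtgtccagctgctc
Slc25a25: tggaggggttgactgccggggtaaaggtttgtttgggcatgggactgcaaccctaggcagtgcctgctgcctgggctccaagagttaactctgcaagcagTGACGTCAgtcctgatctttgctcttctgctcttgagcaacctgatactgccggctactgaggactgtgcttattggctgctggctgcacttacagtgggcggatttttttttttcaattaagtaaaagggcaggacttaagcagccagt

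Nr4a1 and Nr4a2 each carried 4 copies of the core in these windows, with the nearest to the start 40 bases before it in Nr4a1 and 111 in Nr4a2. Nr4a3 had 3 in the bases shown, all more than 200 bases before the RefSeq start. The annotated gene begins at 48045153, directly after the bases shown, so these copies lie within the 98 bases before that position. Coq10b had 4 copies, of which 3 fell between 72 and 50 bases before the start. Fosb had a single copy, 60 bases before its start, and Slc25a25 had the full palindrome, 150 bases before. The promoters matched at other starts of Slc25a25 (chr2:32431102-32431401 and chr2:32451421-32451720, minus) held no copy of the core. Of the other motifs searched on both strands, the EGR element GCGNGGGCG occurred in 14.8% of the promoters of genes called higher and 9.78% of those of tested genes, and the AP-1 element TGANTCA in 6.17% and 5.55%. The SRF element, the CArG box, occurred in 2.47% and 1.32%. The NR4A element AAAGGTCA, the palindromic glucocorticoid response element and the heat shock element were each in 0 of the 81 promoters, and were rare in those of tested genes too, at 1.07%, 0.0124% and 0.476%. At such shares, 81 promoters are too few for a 0 to set the induced genes apart.

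The NR4A orphan receptors, nuclear receptors that act without a known hormone and, in corticotropes, are known as activators of Pomc, had the highest median of the 16 lists, at 3.608. Restraint raised 3 of 3. For this list and every list below, the counts of calls stand beside 0.482% of all genes tested called higher and 0.0609% called lower. All lists were chosen with earlier results of these data known. Nothing is therefore drawn from their numbers of calls or from the order of their medians. Nr4a3 (chromosome 4, 48045153 to 48086447) was counted at 1.75, 2.17, 1.54 and 1.91 CPM in control mice 1 to 4 and at 34.4, 47.7, 11.4 and 55.6 CPM in restrained mice 1 to 4. All restrained mice lay far above the controls, with mouse 3 the lowest of them. Its log2 fold change was 4.36 (standard error, SE, 0.48, adjusted p = 0.000275), the largest among called genes. Nr4a1 (chromosome 15, 101254269 to 101274795) had 22.3, 63.6, 76.6 and 66.3 CPM in controls and 539, 821, 441 and 971 CPM after restraint. Control mouse 1 was the lowest control, and the lowest restrained mouse was again mouse 3. Nr4a2 had 20.0 to 38.7 CPM in the controls and 253, 352, 148 and 417 CPM in restrained mice 1 to 4. The order of the 4 restrained mice was therefore the same for all 3 receptors (mice 4, 2, 1 and 3). The gene Grasp, whose product is a scaffold for receptors at the membrane, ends 21512 bases upstream of Nr4a1 on the same strand, and it rose too, from 2.17 to 3.53 CPM in controls to 5.45 to 6.07 CPM after restraint (log2 fold change 0.92, adjusted p = 0.00988).

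The AP-1 family holds leucine zipper factors that bind DNA in pairs. Of 9 tested, 4 rose, namely Fosb, Atf3, Fosl2 and Maff, none fell by the test, and the list median was 1.256. Fosb (chromosome 7, 19302696 to 19310051) had 2.2, 3.53, 4.30 and 5.02 CPM in controls and 54.1, 57.5, 26.6 and 109.7 CPM after restraint. Restrained mouse 4 was the highest and mouse 3 the lowest. The log2 fold change was 4.06 (SE 0.51, adjusted p = 0.000748). Atf3, a stress-induced CREB-like factor, had 1.13 to 2.99 CPM in controls and 8.54, 12.7, 7.95 and 29.2 CPM in restrained mice 1 to 4 (log2 fold change 2.85, adjusted p = 0.0363), and it was called in 8 of 17 alternative settings. Fosl2 had 44.0, 105.5, 45.1 and 117 CPM in controls, so that mice 2 and 4 were far above mice 1 and 3, and 202 CPM or more in every restrained mouse. Maff, a small MAF protein, had 0.997 to 1.94 CPM against 3.24 to 5.22 CPM (log2 fold change 1.48, adjusted p = 0.00957).

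Not all early AP-1 genes were high at this time. Fos, the classic marker of acute activation, had 20.3, 44.2, 31.9 and 27.5 CPM in controls and 15.5, 15.2, 23.3 and 16.2 CPM after restraint. The groups overlapped only through restrained mouse 3, and the log2 fold change was -0.81 (SE 0.82, adjusted p = 0.844). Jun had a log2 fold change of -1.01 that just missed the call (adjusted p = 0.0582), and its restrained mice all lay below the controls. Junb had 38.5 to 62.2 CPM in controls and 72.7, 99.8, 101 and 151 CPM in restrained mice 1 to 4. Its groups did not overlap, but it was not called (log2 fold change 1.26, adjusted p = 0.410).

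The EGR zinc finger factors and SRF, which act downstream of MAP kinase, gave 2 calls among 11 genes tested, both higher, with a list median of 0.70. Egr3 (chromosome 14, 70077203 to 70082614) had 1.59, 2.04, 1.48 and 1.28 CPM in controls and 8.03, 11.7, 8.64 and 23.1 CPM after restraint, a log2 fold change of 3.03 (SE 0.35, adjusted p = 0.000321). Egr4 was counted with 16 to 37 reads in a control library and 81 to 183 in a restrained library (log2 fold change 2.08). Egr2, Nab2 (an EGR corepressor) and Srf did not pass the test, with log2 fold changes of 1.30 (adjusted p = 0.105), 0.58 (adjusted p = 0.0964) and 0.39 (adjusted p = 0.0667). All 3 were called when restrained mouse 3 was left out, which gave 5 calls in this list.

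**Figure D2:**
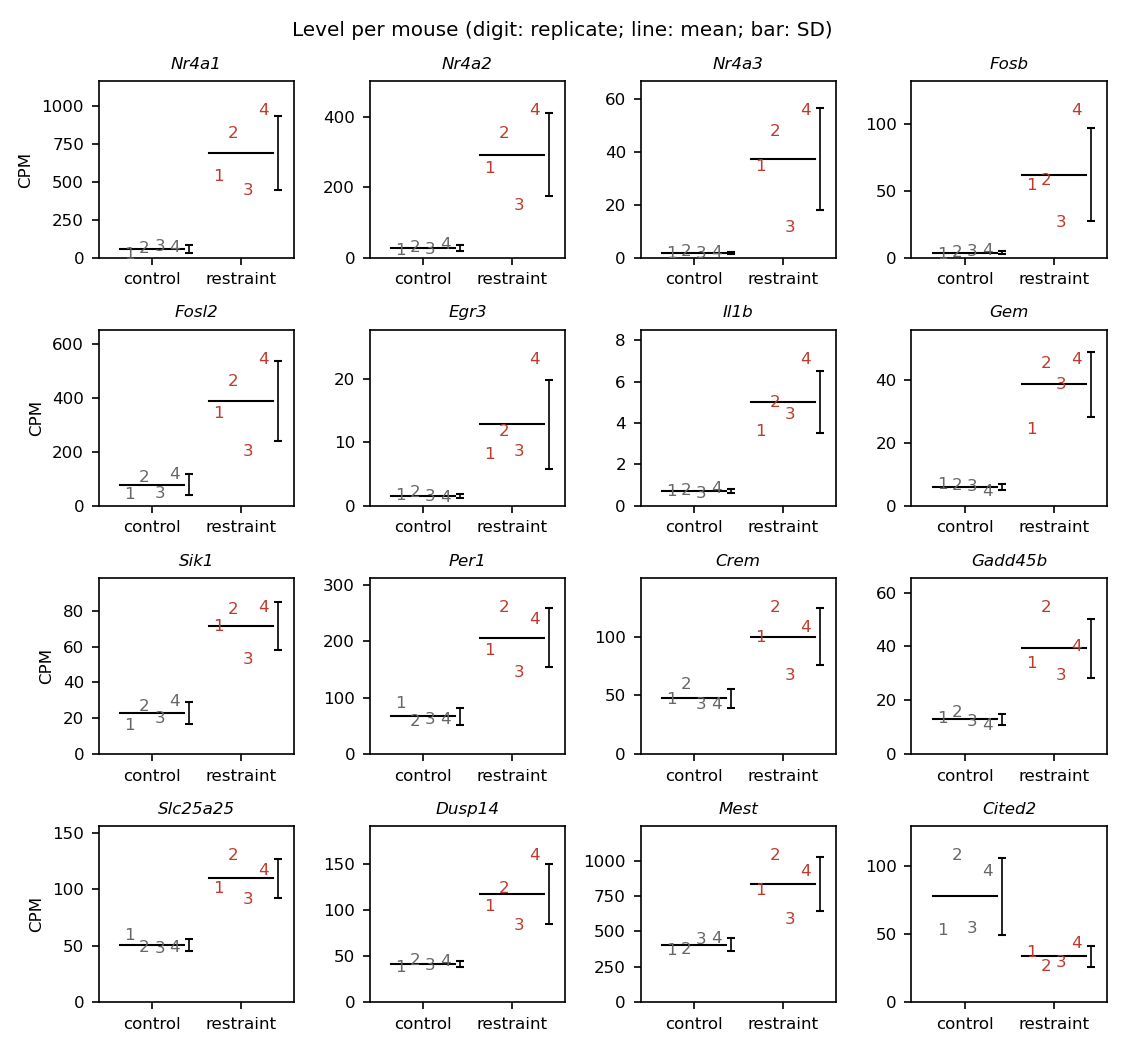
Level of 16 genes per mouse (CPM, vertical axes starting at 0) in home cage controls (grey) and restrained females (red), where each digit is a mouse by its replicate number, horizontal lines are group means and bars are SD (n = 4). Restrained mouse 3 is the lowest restrained mouse in most panels of induced genes, and Cited2 is the only gene shown that fell.

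Genes listed for cyclic AMP and calcium, the longest list, gave 8 calls higher and 1 lower of 32 tested (list median 0.157). Over all genes tested, 0.543% were called. The list was chosen with earlier results of these data known, so nothing is drawn from its number of calls. Gem (chromosome 4, 11704457 to 11714752), a small GTPase that limits calcium channels, had 6.65, 6.47, 6.24 and 4.48 CPM in controls and 24.2, 45.2, 38.4 and 46.5 CPM after restraint. Here restrained mouse 1, not mouse 3, was the lowest. The log2 fold change was 2.70 (SE 0.36, adjusted p = 0.00130). Sik1, a salt-inducible kinase that restrains the CREB coactivators, had 15.8 to 29.5 CPM in controls and 71.1, 80.6, 52.7 and 81.9 CPM in restrained mice 1 to 4 (log2 fold change 1.65, adjusted p = 0.00206). Crem, whose short product is a repressor of CRE sites, had 42.2 to 59.1 CPM in controls and 67.4 to 125 CPM after restraint (log2 fold change 1.08, adjusted p = 0.00988). Fam212b and B3galt2, a galactosyltransferase, were called higher as well (log2 fold change 1.25, adjusted p = 0.00180, and log2 fold change 1.45, adjusted p = 0.00206).

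Of the 4 regulators of G protein signalling in this list, proteins that speed the switching off of G proteins, 2 were called higher and 1 lower, and Rgs4 was not called (log2 fold change -0.22, adjusted p = 0.894). Rgs2 rose from 64.5 to 81.4 CPM in controls to 120, 118, 111 and 219 CPM in restrained mice 1 to 4 (log2 fold change 1.02, adjusted p = 0.0138), and mouse 4 stood apart. Rgs1 was near the limit of detection, with 8, 0, 7 and 8 reads in control libraries and 17 to 38 reads after restraint (log2 fold change 1.97, adjusted p = 0.0388), and was called in 7 of 17 alternative settings. Rgs16 fell from 29.4, 39.9, 38.4 and 38.1 CPM to 28.1, 25.0, 27.4 and 26.5 CPM (log2 fold change -0.44, adjusted p = 0.0363). Control mouse 1 was close to the restrained mice in this gene. Homer1, a scaffold of postsynaptic receptors, was at 23.8, 26.0 and 26.0 CPM in restrained mice 1, 2 and 4 and at 8.57 CPM in mouse 3, below 3 of the controls. It was not called (log2 fold change 1.26, adjusted p = 0.0907), and was called without mouse 3. The not-called members of smallest p after it were Pde4b, a cyclic AMP phosphodiesterase, at 0.47 (adjusted p = 0.233), and Crtc2, a CREB coactivator, at -0.21 (adjusted p = 0.301).

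Feedback on MAP kinase gave 3 calls of 17, all higher (list median 0.208). Dusp14, a dual-specificity phosphatase, had 37.4, 45.1, 39.9 and 43.9 CPM in controls and 103, 123, 83.4 and 159 CPM after restraint (log2 fold change 1.5, SE 0.17, adjusted p = 0.000318). Dusp5, a nuclear phosphatase for ERK, and Spry4, a Sprouty inhibitor of receptor tyrosine kinase signalling, rose by 1.02 (adjusted p = 0.0235) and 0.77 (adjusted p = 0.0459), each called in 7 of 17 alternative settings. Errfi1, an inhibitor of the EGF receptor, was not called at 1.21 (adjusted p = 0.0821), although its groups did not overlap. Dusp6 and Spred2 had 0.34 (adjusted p = 0.338) and -0.37 (adjusted p = 0.337).

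In the list of further early response factors, 3 of 29 genes rose and 1 fell (list median 0.173). Csrnp1 had 11.7 to 14 CPM in controls and 23.0 to 33.0 CPM after restraint (log2 fold change 1.12, adjusted p = 0.00583). Plk3, a polo-like kinase of the stress response, and Mcl1, a BCL2 family protein that protects cells from apoptosis, rose by 1.04 (adjusted p = 0.0134) and 0.40 (adjusted p = 0.00608). Cited2 (chromosome 10, 17723218 to 17725674), a cofactor that competes for the coactivators CBP and p300, had 52.9, 107.8, 54.6 and 96.5 CPM in controls and 36.8, 26.6, 29.2 and 43.6 CPM after restraint. All restrained mice lay below the controls, whose mice 2 and 4 were much higher than mice 1 and 3, as for Fosl2 and Jun. Its log2 fold change was -1.19 (SE 0.23, adjusted p = 0.0232), the largest fall. Sertad1, Trib1 and Nfil3 had values of 0.55, 0.59 and 0.80 that did not pass (adjusted p = 0.0696, 0.0867 and 0.125).

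Cytokines and the NF-kB pathway gave 1 call of 24, and that gene had the smallest p of all. Il1b (chromosome 2, 129364570 to 129371139), the inflammatory cytokine interleukin-1 beta, had 0.701, 0.724, 0.598 and 0.827 CPM in controls and 3.61, 4.98, 4.41 and 7.09 CPM after restraint. This corresponds to 16 to 34 reads in a control library and 136 to 245 in a restrained library, and no restrained mouse came near the controls. The log2 fold change was 2.82 (SE 0.24, adjusted p = 4.23e-05). Nfkbiz, Socs3 and Rel had 0.58 (adjusted p = 0.118), -0.35 (adjusted p = 0.208) and 0.61 (adjusted p = 0.224). Without restrained mouse 3, Rel was called higher (0.75, adjusted p = 0.0457). Macrophage markers (8 genes) summed to 105 to 109 CPM in controls and 110 to 143 CPM in restrained mice, so the sums did not overlap. In 2 of the 8 genes all restrained mice lay above all controls, against 2.76% of all genes tested. Of the 8, 0 were called, and with 0.543% of all genes tested called, a 0 does not set 8 genes apart. Neutrophil markers summed to at most 2.14 CPM in any of the 8 mice, with Ly6g not in the table. MHC class II genes (6, chosen after seeing the data) summed to 756 CPM in restrained mouse 4, the highest of the study, and to 248 to 311 CPM in the other 7 mice. The part of these cells in the rise of Il1b was not tested.

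Glucocorticoid receptors and target genes were listed because corticosterone rises in restraint and feeds back on the pituitary. Of 28 tested, 1 was called higher (list median 0.188), and it was Per1, which is also a clock gene. Per1 (chromosome 11, 69095217 to 69109960) had 90.0, 57.2, 61.0 and 61.6 CPM in controls and 183, 260, 144 and 238 CPM after restraint, with a log2 fold change of 1.62 (SE 0.17, adjusted p = 0.000275). In controls, mouse 1 was the highest and still below every restrained mouse. Ddit4, an inhibitor of mTOR signalling, had 0.34 (adjusted p = 0.161). Plin4, a coat protein of lipid droplets, had 0.598 to 1.36 CPM in 7 mice and 21.6 CPM in restrained mouse 3, the mouse with adipocyte transcripts. Of 22 clock genes, Cry2, a repressor of the clock, was the other gene called, at 0.45 (adjusted p = 0.0387), and the list median was 0.055. Hlf and Csnk1d had 0.38 (adjusted p = 0.0511) and 0.10 (adjusted p = 0.506), and Hlf was called higher without restrained mouse 3 (0.45, adjusted p = 0.00629).

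Growth arrest and apoptosis genes gave 2 calls of 20, both higher (list median 0.087). Gadd45b, a stress sensor that activates p38 and JNK kinases, had 13.1, 15.7, 12.3 and 10.7 CPM in controls and 33.7, 54.5, 29.4 and 40.0 CPM after restraint (log2 fold change 1.62, SE 0.22, adjusted p = 0.00150). The other call was Mcl1, given above. Bcl2l11 and Gadd45a had 0.47 (adjusted p = 0.122) and 0.26 (adjusted p = 0.476). Of 20 heat shock chaperones, Dnajb1, a partner of HSP70, was called, at 0.87 (adjusted p = 0.0174), with a list median of 0.212. Its values in restrained mice 1 and 2, at 86.3 and 100.9 CPM, were above those of mice 3 and 4, at 56.3 and 60.8 CPM. The same pair was high in Hspa1a, an inducible HSP70 gene, at 30.3 and 57.6 CPM, while mice 3 and 4 had 14.7 and 15.5 CPM, within the control range of 12.0 to 16.7 CPM. Hspa1a was not called (log2 fold change 1.06, adjusted p = 0.241), nor was its near-identical copy Hspa1b (1.02, adjusted p = 0.317), with which it may share reads, or Bag3, a cochaperone (0.83, adjusted p = 0.0907). Bag3 was called higher without restrained mouse 3 (0.99, adjusted p = 0.0175).

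Leaving out restrained mouse 3 changed the number of calls in 5 of the 16 lists. Genes called higher went from 2 to 5 in the EGR and SRF list, from 8 to 9 in the cyclic AMP and calcium list, from 2 to 3 in the clock list, and from 1 to 2 in both the cytokine and the heat shock list. The other 11 lists had the same number of calls in each direction.

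**Figure D3:**
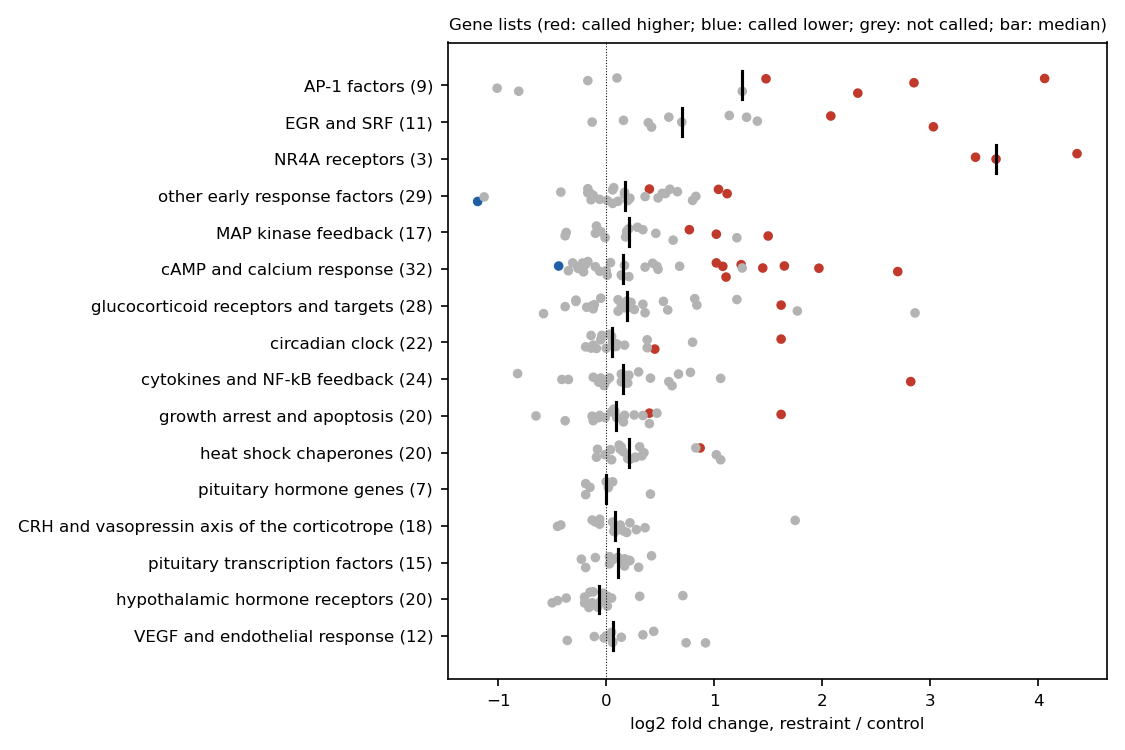
Log2 fold change (restraint over control, horizontal axis) of each tested member of 16 gene lists, with the number tested in parentheses, called members in red (higher) or blue (lower), other members in grey and a black bar at each list median. Medians of the NR4A, AP-1 and EGR lists lie at 3.608, 1.256 and 0.70, and those of the hormone genes and hypothalamic hormone receptors at 0.002 and -0.07. The lists were chosen with earlier results of these data known, so nothing is drawn from the order of their medians.

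Hormone genes did not pass the test, with 0 of 7 called, 0 at an unadjusted p under 0.05 and a list median of 0.002. Over all genes tested, 0.543% were called and 9.77% had such a p, so these counts do not set a list of 7 apart. Pomc had 68100, 36600, 49500 and 39200 CPM in controls and 77000, 94500, 45500 and 39400 CPM after restraint. Restrained mice 1 and 2 were above all controls and mice 3 and 4 were among them, and melanotrope markers, which also come from Pomc-expressing cells, were likewise highest in mice 1 and 2 (2310, 2810, 1270 and 1290 CPM in mice 1 to 4, summed over 7 genes). The log2 fold change of Pomc was 0.41 (SE 0.29, adjusted p = 0.734). Prl, prolactin, and Gh, growth hormone, had -0.19 (SE 0.18) and 0.02 (SE 0.21). Among the glycoprotein hormone subunits, Cga had 0.00 (SE 0.11), Lhb 0.06 (SE 0.12), Tshb -0.19 (SE 0.26) and Fshb -0.15 (SE 0.67). Fshb was set by restrained mouse 2, at 281 CPM, against 35.6 to 82.6 CPM in the other restrained mice.

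The CRH and vasopressin axis gave 0 calls of 18, pituitary transcription factors 0 of 15, hypothalamic hormone receptors 0 of 20 and VEGF and endothelial genes 0 of 12. With 0.543% of all genes tested called, a 0 does not set lists of this size apart. These lists had 3, 0, 0 and 2 genes at an unadjusted p under 0.05, where 9.77% of all genes tested had such a p. Tbx19, the factor that specifies corticotropes, had a log2 fold change of 0.22 (SE 0.16), and Crhr1, the CRH receptor, -0.06 (SE 0.16). Avpr1b, the pituitary vasopressin receptor, had -0.45 (SE 0.24), and the glucocorticoid and mineralocorticoid receptors Nr3c1 and Nr3c2 had -0.13 (SE 0.11) and -0.05 (SE 0.13). Crhbp, the binding protein that sequesters CRH, had 84.9, 102, 56.8 and 164 CPM in controls and 338, 144, 109 and 771 CPM in restrained mice 1 to 4. The groups overlapped, and the log2 fold change of 1.75 had a SE of 0.59 (adjusted p = 0.290). Prkar1a, a regulatory subunit of protein kinase A, and Pcsk1, the prohormone convertase that cleaves the Pomc product to ACTH, had 0.19 (adjusted p = 0.286) and 0.36 (adjusted p = 0.402). Among the transcription factors, Gata2 and Foxl2 had 0.42 and -0.19 (adjusted p = 0.663 and 0.722), and the receptors after Avpr1b were Thrb and Vipr1, at -0.37 and 0.71 (adjusted p = 0.639 and 0.688). Esm1, a secreted product of endothelial tip cells, had 65.9 to 77.6 CPM in controls and 102 to 162 CPM after restraint, without overlap and without a call (log2 fold change 0.92, adjusted p = 0.120). Apold1 and Adamts1 had -0.36 (adjusted p = 0.235) and 0.44 (adjusted p = 0.514).

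A further 59 of the 87 genes that rose belonged to none of these lists, and those named were not fixed as a group beforehand, so nothing is drawn from what they have in common. Mknk2 (chromosome 10, 80665327 to 80678112), a kinase downstream of MAP kinase that phosphorylates the translation factor eIF4E, had 100.3, 88.8, 86.3 and 84.2 CPM in controls and 120, 132, 131 and 128 CPM after restraint. The shift was small but the spread was narrower still (log2 fold change 0.51, SE 0.05, adjusted p = 0.000275). Clk1, a kinase of splicing factors, behaved in the same way, with 135 to 144 CPM in controls and 176 to 183 CPM after restraint (log2 fold change 0.38, SE 0.05, adjusted p = 0.00261). Pard6a, a cell polarity protein, rose by 0.76 (adjusted p = 0.000748), and so did Acd, a telomere protein whose gene starts just upstream on the opposite strand, by 0.35 (adjusted p = 0.0306, called in 7 of 17 alternative settings).

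Coq10b, a binding protein of coenzyme Q, had 27.3 to 34.7 CPM in controls and 71.0, 84.6, 58.9 and 109 CPM in restrained mice 1 to 4 (log2 fold change 1.40, SE 0.17, adjusted p = 0.000473). Slc25a25, a calcium-dependent ATP carrier of the mitochondrial inner membrane and a called member of the cyclic AMP and calcium list, had 48.0 to 58.8 CPM and 90.8 to 130 CPM. Mat2a, an enzyme of S-adenosylmethionine synthesis, rose by 0.57 (adjusted p = 0.0157). Gls2, a glutaminase, and Pmvk, an enzyme of the mevalonate pathway, rose by 0.76 (adjusted p = 0.0131) and 0.52 (adjusted p = 0.00988). The called genes with the highest mean CPM over the females were Mest, Nr4a1, Dos, Syt4 and Nap1l5. Syt4, a synaptotagmin of secretory vesicles, went from 225 to 267 CPM in controls to 271 to 432 CPM (log2 fold change 0.61, adjusted p = 0.0427, called in 8 of 17 alternative settings), and Dos from 222 to 286 CPM to 310 to 567 CPM (0.86, adjusted p = 0.0174).

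Mest (chromosome 6, 30723547 to 30748465), an imprinted gene expressed from the paternal allele, had 363, 374, 446 and 448 CPM in controls and 790, 1030, 588 and 921 CPM after restraint (log2 fold change 1.04, SE 0.17, adjusted p = 0.00858). Every restrained mouse exceeded every control. The microRNA gene Mir335 (chromosome 6, 30741299 to 30741396) lies in Mest on the same strand and overlaps 0 of its annotated exons. It was counted with 20 to 36 reads in control libraries and 81 to 109 after restraint (log2 fold change 1.46, adjusted p = 0.0283), and in mRNA libraries such reads cannot be told apart from unspliced Mest. Zdbf2 and Nap1l5 rose by 1.10 (adjusted p = 0.0109) and 0.56 (adjusted p = 0.0422), and Nap1l5 was called in 1 of 8 fits with a mouse left out.

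Several transcripts, picked here after their values were seen, were nearly absent in controls. Slfn14 had 3, 1, 2 and 3 reads in control libraries and 21, 66, 15 and 9 reads after restraint (log2 fold change 3.29, adjusted p = 0.0119), a fold change that rests on very few reads. Gpr3, a receptor that activates adenylyl cyclase without a ligand, had 13 to 30 reads and 34 to 154 reads (2.2, adjusted p = 0.00988). Transcripts that carry only a cDNA name made up 10 of the 87 genes called higher and 1419 of the 18059 genes tested. Of these, AK006051 rose from 1.14 to 2.35 CPM to 6.43 to 20.9 CPM (log2 fold change 3.11, adjusted p = 0.000318) and AK039878 from 1.34 to 2.53 CPM to 4.84 to 25.8 CPM (3.35, adjusted p = 0.00305).

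Of the 11 genes that fell, Cited2 and Rgs16 belonged to different lists and the other 9 to none, and 10 of the 11 changed by less than 2-fold. These calls depended on single mice. Without restrained mouse 3, 27 genes were called lower, and without any other mouse 1 to 4. Parp16, an ADP-ribosyltransferase of the endoplasmic reticulum, had 11.9, 11.3, 10.9 and 10.6 CPM in controls and 7.99, 7.05, 8.96 and 7.87 CPM after restraint (log2 fold change -0.49, SE 0.08, adjusted p = 0.0119). Tfap4, a helix-loop-helix transcription factor, had 7.06 to 8.67 CPM and 3.94 to 5.78 CPM (-0.71, adjusted p = 0.0283). The zinc finger genes Zfp960 and Zfp870 had -0.55 (adjusted p = 0.0331) and -0.50 (adjusted p = 0.0399). Stk32a, a kinase, had -0.45 (adjusted p = 0.0375) and Dclre1b, a nuclease that protects telomeres, -0.34 (adjusted p = 0.0354). Nupl2, Amer3 and AK138383 had -0.42 (adjusted p = 0.0417), -0.49 (adjusted p = 0.0478) and -0.64 (adjusted p = 0.0496). In the 8 fits with a mouse left out, AK138383 was called in 0, Zfp960, Zfp870, Nupl2, Amer3, Stk32a and Dclre1b in 1, Rgs16 in 2, Tfap4 in 3, Cited2 in 4 and Parp16 in 6. Without restrained mouse 3, Dclre1b, Stk32a and AK138383 were no longer called, nor was Atp5d among the genes called higher. Erythrocyte genes, which are not made by the gland, summed to 1150 to 1530 CPM in controls and 850 to 1180 CPM after restraint.

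The strength of the response differed between restrained mice. Over the 87 genes called higher, the median log2 ratio to the control mean was 0.958, 1.149, 0.601 and 1.157 in restrained mice 1 to 4. Mouse 3 was the lowest of the 4 in 64 genes and the highest in 1, whereas mice 4 and 2 were the highest in 45 and 37. Over the 11 genes called lower, the same medians were -0.510, -0.556, -0.439 and -0.505. The mouse with the weakest induction was thus the one with adipocyte transcripts, and the part of these transcripts in the weaker induction was not tested. In the control group, olfactory genes (6, chosen after seeing the data) summed to 29.0 CPM in mouse 2 and to 3.34 to 4.07 CPM in the other 3.

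**Figure D4:**
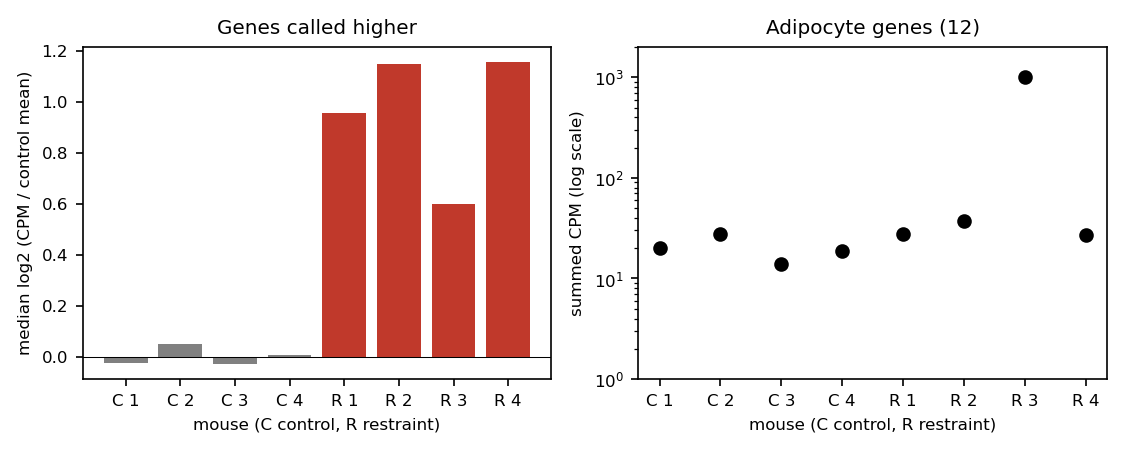
Left, median log2 ratio of CPM to the control mean over the 87 genes called higher (bars, C for control and R for restrained mice). Right, summed CPM of 12 adipocyte genes on a log scale. Restrained mouse 3 has the lowest bar of the restrained mice, at 0.601, and an adipocyte sum of 1000 CPM, while the other 7 mice lie between 13.9 and 37.3 CPM.

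Mice outside this comparison showed how far the same genes moved elsewhere. In sleep-deprived females, where restrained and unrestrained mice are other animals than those above, restraint gave 170 calls of 18059 (0.941%), 147 higher (0.814%) and 23 lower (0.127%). Of the 87 genes called higher, 87 were higher there too, 86 of them at an unadjusted p under 0.05 and 75 of them called, with a median log2 fold change of 0.978. Of all genes tested, 47.9% were higher there and 5.08% at an unadjusted p under 0.05. Of the 11 genes that fell, 11 had a negative value there, 9 at an unadjusted p under 0.05 and 4 called, against 52.1% negative over all genes. All 16 females shared 1 estimate of the spread. Leaving out PSD mouse 2 or 3, or restrained PSD mouse 1, reduced the 170 calls to 103, 98 and 88. Left without a call there were, for example, Maff, at 0.77 (adjusted p = 0.233), and Spry4, at 0.41 (adjusted p = 0.378).

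In males, restraint gave 54 calls of 18271 genes (0.296%), 53 higher (0.290%) and 1 lower (0.00547%). This rests on 2 restrained males and 4 controls, and gave 20 and 19 calls without restrained male 2 or 3, and 27, 30 and 31 without control male 2, 3 or 4. Of the 87 genes, 86 had a positive value there, against 49.1% of all genes, and 60 did so at an unadjusted p under 0.05, against 3.01%. The median was 0.725, and 26 were called. Of the 11 genes that fell in females, 9 were negative and 0 were called, against 50.9% of all genes negative. The test of the difference between the sexes gave an unadjusted p under 0.05 for 14 of the 87 (16.1%) and 6 of the 11 (54.5%), against 4.29% of all genes, with 1.0 as the smallest adjusted p. The genes were chosen by the female values that enter this difference, so nothing is read from these shares. Examples, picked after their values were seen, were Pvr, the poliovirus receptor, at 1.56 in females and 0.44 in males, Zfp184 at 0.94 and 0.08, and Cited2 at -1.19 and -0.10 (adjusted p of the difference = 1.0 for each). Without restrained mouse 3, 151 of 151 genes called higher had the same sign in sleep-deprived females and 144 of 151 in males, and the 27 called lower did so for 27 and 23.

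**Figure D5:**
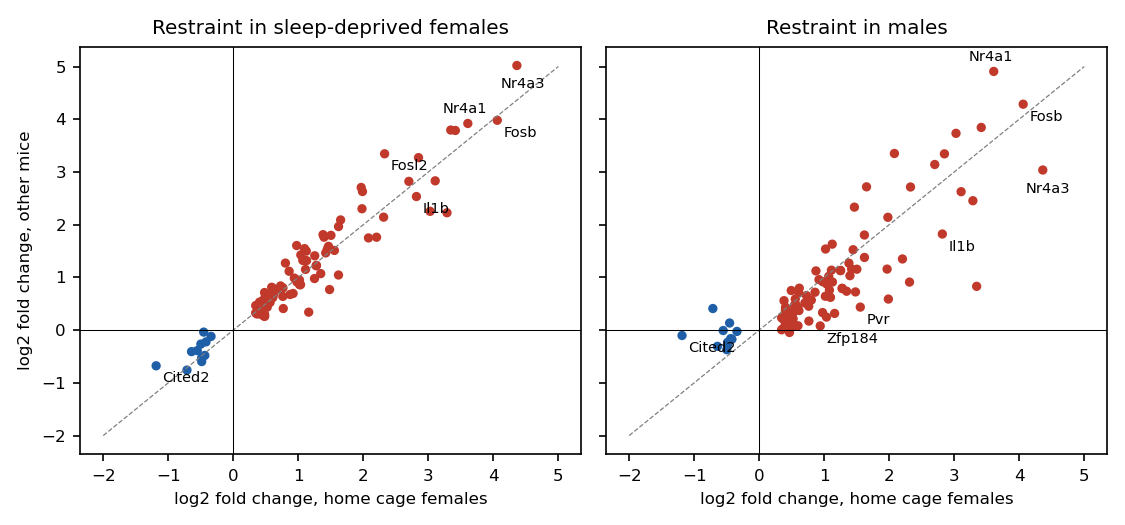
Log2 fold change after restraint of the 98 genes called in home cage females (horizontal axes) beside the value of the same genes in sleep-deprived females (left) and in males (right), red for genes called higher and blue for genes called lower, with the dashed line marking equal values. In sleep-deprived females all 98 points keep their sign, and in males 86 of 87 red and 9 of 11 blue points do.

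The difference between these responses was tested directly. The interaction of PSD with restraint gave 0 calls of 18059 genes with edgeR (0%), 766 genes (4.24%) at an unadjusted p under 0.05 and 0 calls with DESeq2, where 705 genes had such a p. The difference between females and males gave 0 calls of 18936 genes (0%), 804 at an unadjusted p under 0.05, and 0 calls with DESeq2 (759). Neither 0 shows that the responses were equal, since real differences can be missed with these numbers of mice. The genes of smallest p for the interaction were Cep126, AK134717, 4930555G01Rik, Dak and Mir1943, with differences of 0.43, 0.73, 1.91, -0.34 and -1.63 (adjusted p = 0.961 for each). For the sexes they were Taf3, Nfs1, Fam69a, Mast4 and Dgcr6, with -0.50, 0.35, 0.66, -0.59 and 0.53 as the female minus the male log2 fold change (adjusted p = 1.0 for each). Among the early genes, Nr4a3 had 4.36 in home cage females, 5.02 in sleep-deprived females and 3.04 in males, and Fosl2 had 2.33, 3.34 and 2.72. Fos had -0.81, -0.04 and 3.6, with none of the 3 called.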

How the data were processed

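Pituitary RNA of 28 mice was sequenced as paired stranded mRNA libraries. The authors aligned the reads to mm10 with MapSplice, used HTSeq 0.9.1 (intersection-nonempty) to count them over UCSC gene models and deposited raw counts per gene and mouse. Whether counting used the strand is not given in the sources used here, so overlapping and antisense genes may share reads. A second deposited table, a signal equal to counts over 1 factor per mouse, was not used.

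Groups came from the sample labels. In R 4.3.3, edgeR 4.0.16 (TMM, filterByExpr, quasi-likelihood test) was fitted to the 16 females with PSD, restraint and their interaction, with Benjamini-Hochberg adjustment over all genes tested. Genes were called at an adjusted p of at most 0.05 where the log2 fold change, in either direction, reached 0.322, limits taken from the study's methods. Fold changes are not shrunken. Males were fitted alike, and the sexes were compared in a fit of all 28 mice. Lists and promoter motifs are described by counts and medians, without a test. Positions come from GENCODE M21 (GRCm38) and promoter sequences from RefSeq.

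The comparison, gene lists and tests were chosen with earlier results of these data known. The text names the 20 induced genes of smallest p without overlap, every gene that fell, called list members with up to 3 further members of smallest p per list, hormone genes and receptors, and the genes of largest change or abundance. Other genes were picked after their values were seen. Some genes that this rule selects are not reported here.

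Alternatives were DESeq2 1.42.0 with the study's model and limits, shrunken fold changes for restraint without PSD, but not its TPM minimum (the authors used DESeq2 1.16.1), its size factors, other filters, no fold threshold, robust estimation, only the 8 mice, thinned counts, a replicate block and each mouse left out. On simulated data with 200 well-counted genes changed by 1 log2 unit, edgeR recovered 176 in the main comparison and called 5 unchanged genes.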

Additional observations from a re-analysis of the deposited data

Results flagged for a closer look

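In a group of 4 mice, a mouse stood apart where its gap to the nearest other mouse exceeded the critical share of the group's range (Dixon's criterion), which chance gives in about 1 of 20 groups. This held for 16 of 240 groups, over 120 genes, among them 5 with control mouse 1 and 4 with restrained mouse 3. Restrained mouse 3 was the highest of its group in Plin4 (21.6 CPM), Fos (23.3 CPM) and the summed adipocyte genes (1000 CPM), and the lowest in Homer1 (8.57 CPM) and AK039878 (4.84 CPM). Control mouse 1 was apart in Slc25a25 (58.8 CPM), Per1 (90.0 CPM), Rgs16 (29.4 CPM), Zfp870 (8.39 CPM) and Fam69a (5.21 CPM). Restrained mouse 4 was the highest in Rgs2 (219 CPM), Cga (3900 CPM) and the summed MHC class II genes (756 CPM). The remaining values were Junb (62.2 CPM) and the summed olfactory genes (29.0 CPM) in control mouse 2, Sertad1 (15.5 CPM) in restrained mouse 2, Spry4 (3.14 CPM) in control mouse 4, Apold1 (12.4 CPM) in control mouse 3 and Fam69a (6.75 CPM) in restrained mouse 1. No cause was tested.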

How the results depend on the processing

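Over 17 alternatives, 32 of the 98 genes were called in every setting and 39 whenever any single mouse was left out, whereas 24 were called in 8 or fewer, among them Atf3, Syt4, Zfp184, Stk32a, Acd, Dusp5, Rgs1, Spry4, Amer3, Zfp870, Dclre1b, Nupl2, Atp5d and AK138383. Leaving out 1 mouse at a time gave 45 to 178 calls, 42 to 151 of them higher and 1 to 27 lower. Calls fell to 52 without restrained mouse 2, 57 without restrained mouse 4, and 56, 45 and 55 without control mice 1, 3 and 4, and rose to 178 without restrained mouse 3. Only the 8 mice gave 54 calls, 52 higher and 2 lower. Genes called lower numbered 19 without a fold threshold, 6 without a filter on low counts and 3 with the replicate block, and DESeq2 called 135 genes, 119 higher and 16 lower.

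Replicate numbers name different animals, and deviations of same-numbered females did not correlate in every pair (lowest -0.279), so the numbers were not taken as pairs. A replicate block gave 66 calls in home cage females, 130 in sleep-deprived females, 4 in males and 0 for both tests of a difference. Restraint in sleep-deprived females gave 88 to 157 calls with 1 mouse left out and 289 with DESeq2, and restraint in males 19 to 63. The interaction and the sex difference gave 0 calls in every setting run. On simulated data, edgeR recovered a change of 1 log2 unit for 142 of 200 genes in the interaction and 160 of 200 in the sex difference. The 0 calls therefore do not show that the responses were equal.

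Some values changed sign among genes that were not called. With DESeq2, Pomc had -0.00398, Tshb 0.0165, 4930555G01Rik 0.0536 and Mir1943 -0.112, against 0.41, -0.19, -0.51 and 0.26 with edgeR. These DESeq2 values are shrunken and those of edgeR are not, so neither their sizes nor their signs are directly comparable. The shrunken model also holds the interaction of PSD with restraint, so a shrunken value need not be that of restraint without PSD alone. In sleep-deprived females, edgeR gave these genes values of the opposite sign to its own above, at -0.33, 0.37, 1.4 and -1.37. Cga had -0.00336 with DESeq2 size factors, -0.00144 without a filter and -0.00335 in the 8 mice. With 1 mouse left out, Tshb ranged from -0.369 to 0.0327, Gh from -0.107 to 0.148, Cga from -0.101 to 0.0713, Lhb from -0.0161 to 0.117, Fshb from -1.09 to 0.18, Crhr1 from -0.176 to 0.0518 and Nr3c2 from -0.138 to 0.00791. The causes were not tested. In the self-test at this depth, 1 log2 unit was recovered for 176 of 200 genes, so smaller changes can be missed. The changed genes were drawn only from well-counted genes and no mouse was made to stand apart. Recovery can therefore be lower in the data themselves.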
